A study of Mus musculus with 6 samples.

Results

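Microglia are the resident macrophages of the brain, and 32 genes that mark them and their macrophage relatives were followed in the mouse habenula with and without a Tet2 conditional knockout label. The genes were chosen by name, as the rows of a gene-level RNA-seq table carrying the symbols of known microglial, macrophage and shared leukocyte markers, and no measured value entered the rule. The list was drawn up with earlier results of these data known. All 32 symbols were found among 55359 genes. Of these, 27 reached a mean of 1 FPKM over the 6 libraries and were tested, and Spi1, Irf8, Ptprc, Mrc1 and Pf4 did not. FPKM is the read count per kilobase of exon, scaled by the library total, so levels of different genes can be compared on that scale.

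The libraries were made from total RNA of the habenula, a small epithalamic region that relays forebrain signals to the midbrain, of C57BL/6 mice aged 2 months. The groups were 3 wild-type (WT) libraries and 3 libraries labelled Tet2 cKO. The Tet2 protein is an enzyme that oxidises methylated cytosine in DNA, a step on the way to its demethylation. The promoter or Cre line behind the deletion, the cells it reaches and the deleted exons are not stated in the sources at hand. Nor is it stated whether each library came from its own animal, so p-values measure the spread between libraries, which may be technical.

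Microglia arise from yolk sac precursors, enter the brain early and maintain themselves there. They depend on colony stimulating factor signalling through the receptor Csf1r and on the transcription factor PU.1, the product of Spi1. In the healthy brain they survey with fine processes, sense nucleotides through purinergic receptors such as P2ry12, hear from neurons through Cx3cl1 and its receptor Cx3cr1, and supply the complement protein C1q. Border-associated macrophages of the meninges, vessels and choroid plexus share many of these genes but carry Mrc1 and Pf4.

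Tet2 itself stood at 3.45, 3.46 and 3.71 FPKM in WT replicates 1, 2 and 3. In the Tet2 cKO libraries it stood at 4.47, 4.02 and 3.96 FPKM in replicates 1, 2 and 3. The targeted gene was therefore not lower in any library labelled Tet2 cKO than in WT. The log2 difference was 0.22, with an unadjusted p of 0.0174 and an adjusted p of 0.9999 by edgeR's quasi-likelihood test. A gene total need not show the loss of single exons, so Tet2 neither checks nor contradicts the labels, and every direction given here is one under the Tet2 cKO label.

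Library totals lay between 16089676 and 17917987 counts. WT replicate 3 stood apart, at 30.4 on the first principal component against -14.8 to 8.12 for the other libraries. That component held 34.5% of the variance. The summed level of 8 habenula neuron markers was 227.6 FPKM in WT replicate 3 and 270.7 to 342.4 FPKM in the rest. Summed choroid plexus markers, an index of how much of that adjoining tissue a dissection holds, ran from 447.3 to 1395 FPKM in WT and from 168.9 to 820.7 FPKM in Tet2 cKO. All 9 of these markers were lower under the Tet2 cKO label, with a median log2 difference of -1.34. Of the 9, 8 had an unadjusted p under 0.05 by edgeR (background 2.57%) and 1 had groups that did not overlap (background 6.8%). Over all 14539 tested genes no gene passed an adjusted p of 0.05 (0.0% of genes, smallest adjusted p 0.113 by edgeR). An unadjusted p under 0.05 was reached by 374 genes (2.57%).

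The microglial signature was present in every library. The 32 genes summed to 172.0, 151.1 and 187.4 FPKM in WT replicates 1, 2 and 3. They summed to 204.9, 166.2 and 175.4 FPKM in the libraries labelled Tet2 cKO. The group means were 170 ± 18.2 FPKM (SD, n = 3) in WT, against 182 ± 20.2 FPKM (SD, n = 3) in Tet2 cKO, a ratio of 1.07, and the groups overlapped. In bulk RNA of this kind, fewer microglia and less RNA per microglial cell cannot be told apart. Most markers of blood-borne leukocytes lay at or near 0. Of 10 monocyte and neutrophil markers none reached a mean above 0.345 FPKM, and the neutrophil granule gene Ngp had 0 counts in all 6 libraries. The T cell receptor component Cd3d likewise had 0 counts throughout. Of 10 lymphocyte markers 1 was abundant enough to test, the T cell receptor constant segment Trbc2, at 0.65 to 2.20 FPKM, a level like that of the member Trem2. Further border-associated macrophage markers were low as well, and 2 of 10 were abundant enough to test. The 10 markers summed to 4.26 to 5.65 FPKM in WT, against 4.85 to 5.39 FPKM in Tet2 cKO.

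**Figure D1:**
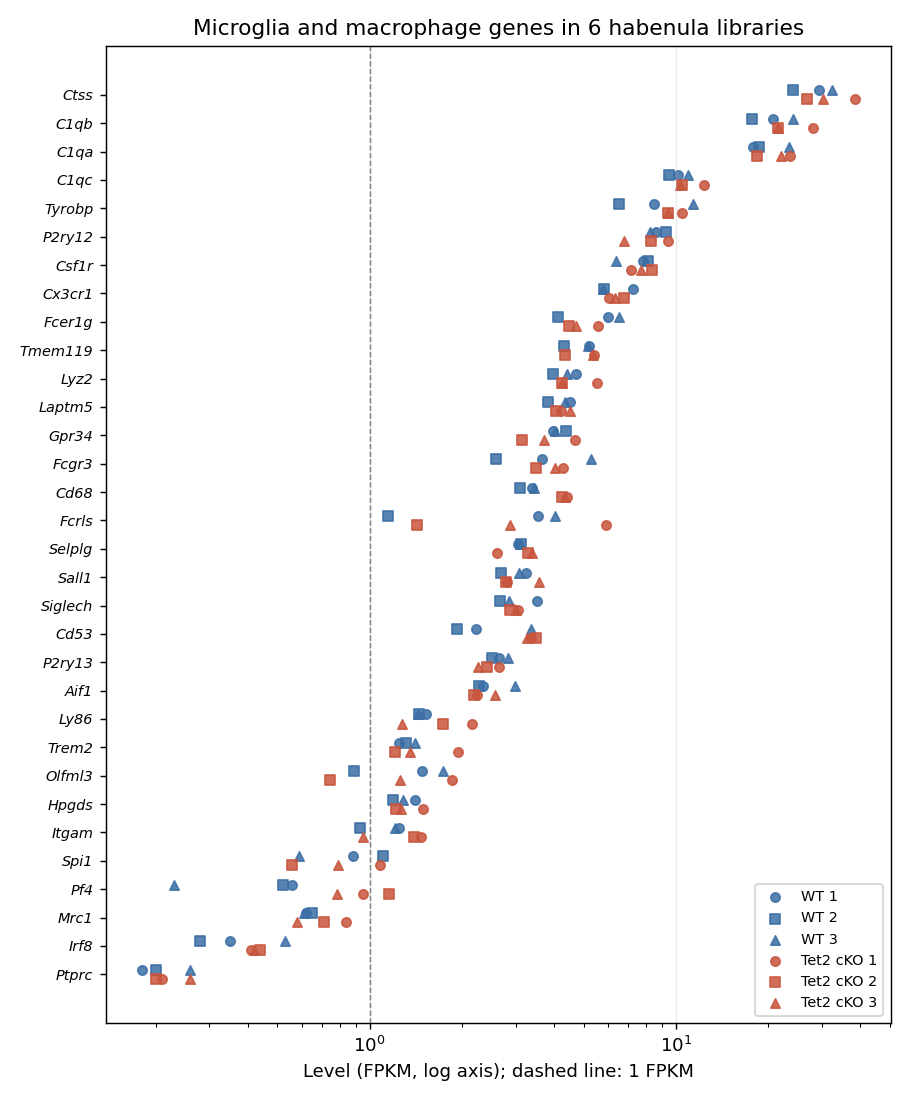
FPKM (log axis) of the 32 microglia and macrophage genes in each of the 6 libraries, ordered by mean level, with WT in blue and Tet2 cKO in red, and 1 symbol for each replicate number. The dashed line marks the 1 FPKM mean needed for testing. Ctss and the C1q chains lie at the top, Ptprc at the bottom, and Fcrls spreads far wider than its neighbours.

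Across the 27 tested members, 19 were higher and 8 lower under the Tet2 cKO label, and none passed the adjusted threshold of edgeR's test in either direction (background 0.0%). The share of members that were higher was 70.4%, and over all tested genes it was 49.1%. Their median log2 difference was 0.033, beside -0.0021 over all tested genes, and single values ran from -0.19 (Fcer1g) to 0.42 (Cd53). The sign of the median rested on single libraries: it was -0.008 without Tet2 cKO replicate 1 and -0.039 without WT replicate 2. At an unadjusted p under 0.05 there was 1 member, Cd68, beside a background of 2.57% in either direction, 0.894% higher and 1.68% lower. Cd68 was also the 1 tested member whose Tet2 cKO libraries all lay above all WT libraries, a pattern found in 3.34% of tested genes. No tested member lay below all WT libraries, where the background was 3.46%, and groups separated in either direction made up 6.8% of tested genes. In 27 of the 32 genes the range of the WT libraries exceeded the difference between the group means.

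Precision differed between members. Over the tested members the median standard error was 0.15 on the log2 scale, from 0.107 for C1qc to 0.504 for Fcrls. The 95% interval lay inside 1.5-fold in both directions for 18 of 27 members. It lay inside 1 log2 unit for 26, the exception being Fcrls, at -0.92 to 1.33.

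**Figure D2:**
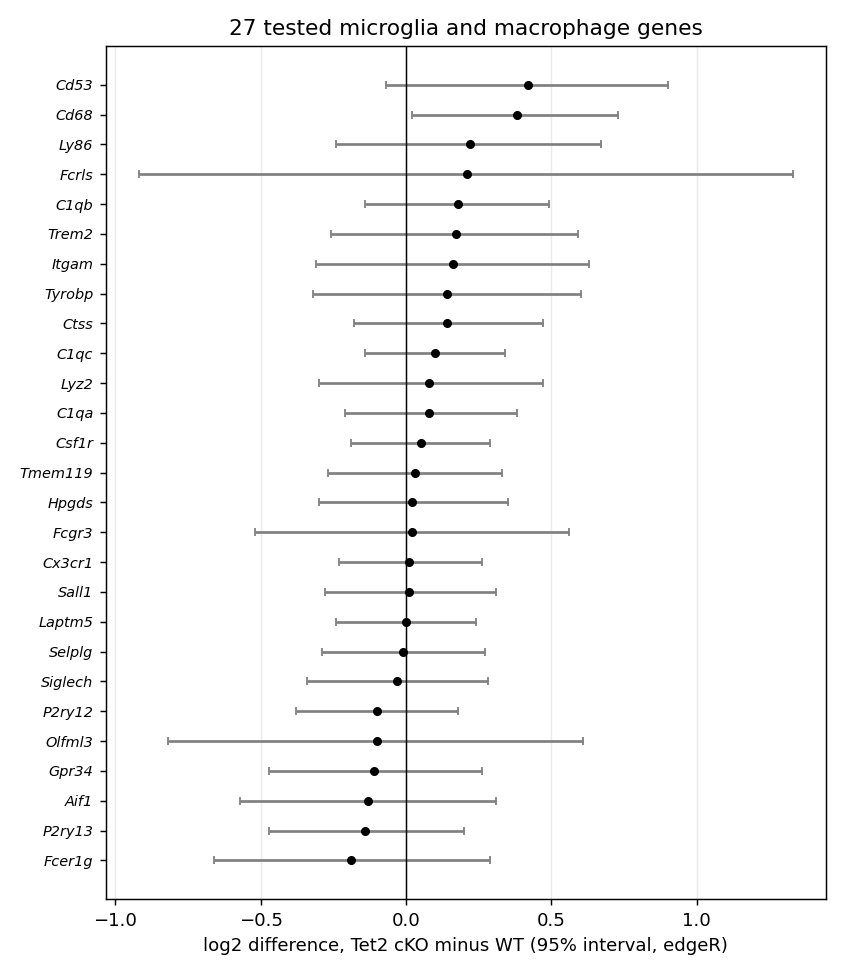
log2 difference, Tet2 cKO minus WT, for the 27 tested microglia and macrophage genes, with points for edgeR's estimate and bars for its 95% interval. All intervals but that of Cd68 span 0, before any adjustment for the number of genes, and Fcrls has the widest.

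Promoters were read to see what the members share beyond their cell type. RefSeq windows on GRCm38.p6 were matched by symbol for 25 of the 32 genes, and the 250 bases before the transcription start were searched. C1qa, Csf1r, Gpr34, Selplg, Spi1, Tmem119 and Tyrobp had no window. A gene with several windows, such as Sall1, was counted if any of them held the motif. The motif AGGAAGT, searched on both strands, holds the core sequence bound by ETS factors, the family of PU.1. It stood in 10 of the 25 members (40.0%) and in 8.80% of all 27025 genes with a window. The shorter GAGGAA, which overlaps it, stood in 64.0% of members and 25.9% of genes, and the longer GAGGAAGT in 12% and 2.79%. For comparison, TATAAA stood in 20% and 14.3%, the AP-1 motif TGAGTCA in 4.0% and 5.16%, and the Sp1 motif GGGCGG in 32% and 35.4%. The motifs were chosen with the members known, a match is a run of letters and not a bound site, and no binding was measured here. The sequences below lie upstream of the start and outside annotated exons of the gene, printed 5′ to 3′ on the gene's strand, with matches in capitals, read as AGGAAGT on the gene's strand or as its reverse complement. P2ry12 (chr3:59262986-59263235), C1qb (chr4:136886201-136886450) and C1qc (chr4:136893066-136893164), all on the minus strand, show the motif in homeostatic and complement genes, and Pf4 (chr5:90772185-90772434, plus strand) shows it in a macrophage gene. AGGAAGT is absent from Cd68 (chr11:69666171-69666420, minus strand), the only tested member with separated groups, whose window holds the shorter GAGGAA. It is also absent from Olfml3 (chr3:103738002-103738251, minus strand), which varied widely between libraries of each group. Pf4, below the testing level, had separated groups too.
P2ry12: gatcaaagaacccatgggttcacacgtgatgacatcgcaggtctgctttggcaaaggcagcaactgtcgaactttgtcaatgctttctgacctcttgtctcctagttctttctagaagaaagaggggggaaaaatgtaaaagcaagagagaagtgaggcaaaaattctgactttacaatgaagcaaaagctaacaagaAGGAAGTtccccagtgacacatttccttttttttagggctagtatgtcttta
C1qb: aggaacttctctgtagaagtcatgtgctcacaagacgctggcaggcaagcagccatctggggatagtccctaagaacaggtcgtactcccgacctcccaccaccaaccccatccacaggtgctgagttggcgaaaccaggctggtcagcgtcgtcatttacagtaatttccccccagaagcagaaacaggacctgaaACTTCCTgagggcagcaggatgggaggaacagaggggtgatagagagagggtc
C1qc: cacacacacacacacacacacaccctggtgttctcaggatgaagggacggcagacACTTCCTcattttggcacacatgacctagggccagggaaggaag
Pf4: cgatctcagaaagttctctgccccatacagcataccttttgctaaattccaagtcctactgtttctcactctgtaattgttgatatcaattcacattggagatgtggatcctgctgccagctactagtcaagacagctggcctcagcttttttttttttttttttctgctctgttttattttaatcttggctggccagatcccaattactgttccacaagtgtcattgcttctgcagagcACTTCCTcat
Cd68: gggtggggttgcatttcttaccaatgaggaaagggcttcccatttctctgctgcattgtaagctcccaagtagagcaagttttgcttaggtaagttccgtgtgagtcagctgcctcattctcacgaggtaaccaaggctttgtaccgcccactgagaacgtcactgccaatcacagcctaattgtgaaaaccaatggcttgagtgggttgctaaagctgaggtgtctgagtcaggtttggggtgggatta
Olfml3: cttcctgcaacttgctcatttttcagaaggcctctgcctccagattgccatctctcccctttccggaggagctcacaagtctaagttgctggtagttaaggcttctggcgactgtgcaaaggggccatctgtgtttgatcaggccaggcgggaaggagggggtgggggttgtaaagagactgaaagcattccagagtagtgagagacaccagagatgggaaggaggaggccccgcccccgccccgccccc
The first base of the motif lay 52 bases before the start in P2ry12, 53 in C1qb, 195 in C1qc and 10 in Pf4. In Fcrls the match lay 75 bases before the start and in Hpgds 48. Both lay past the point where an annotated exon of the gene begins, so they are not printed. Whether members with the motif differed from the rest between groups was not tested.

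The homeostatic surface receptors and adhesion proteins include genes used to set microglia apart from other macrophages. Of 8 such members, 3 were higher and 5 lower, with a median log2 difference of -0.02, and none passed the test. P2ry12, the ADP receptor that steers microglial processes towards injury, was the most abundant, and its promoter is one of those printed with the ETS motif. P2ry12 stood at 8.61, 9.28 and 8.21 FPKM in WT, against 9.44, 8.29 and 6.77 FPKM in Tet2 cKO. Both the highest and the lowest value belonged to Tet2 cKO libraries, and the groups overlapped. On the log2 scale the difference was -0.10, with a 95% interval of -0.38 to 0.18.

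Its neighbour on chromosome 3, P2ry13, is a related nucleotide receptor. P2ry12 lies at chr3:59216272-59262871 and P2ry13 at chr3:59207892-59210882, both on the minus strand of GRCm38. P2ry13 ran from 2.26 to 2.83 FPKM, with a log2 difference of -0.14 (interval -0.47 to 0.20). The ratio of P2ry12 to P2ry13 was steady, at 3.31 ± 0.316 over the 6 libraries (SD, n = 6). P2ry12 shares exon sequence with Med12l on the opposite strand, and the strand setting of the counting is not known, so part of its level may be reads of Med12l.

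Cx3cr1, the receptor for the neuronal chemokine Cx3cl1, ran from 5.80 to 7.25 FPKM and differed by 0.01 on the log2 scale (interval -0.23 to 0.26). Tmem119, a membrane protein used to tell microglia from infiltrating cells, ran from 4.32 to 5.40 FPKM, with a log2 difference of 0.03. The lysophosphatidylserine receptor Gpr34 ran from 3.15 to 4.69 FPKM and Siglech, a sialic acid binding lectin, from 2.66 to 3.52 FPKM. Their log2 differences were -0.11 and -0.03. Selplg, the ligand of P-selectin, ran from 2.60 to 3.38 FPKM with a log2 difference of -0.01. The 95% intervals of Cx3cr1, Tmem119, Gpr34, Siglech and Selplg all lay between -0.47 and 0.33. Cx3cr1 shares exon sequence with a predicted gene on the opposite strand.

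Lineage control was represented by Csf1r, Spi1, Irf8 and Sall1. Csf1r, on whose signalling microglia depend for survival, stood at 7.80, 8.11 and 6.36 FPKM in WT, against 7.15, 8.35 and 7.72 FPKM in Tet2 cKO. Its values overlapped, with the lowest in WT replicate 3, and the log2 difference was 0.05 (interval -0.19 to 0.29). Csf1r shares exon sequence with Hmgxb3 on the opposite strand. Sall1, a zinc finger repressor that keeps microglia in their resting identity, ran from 2.69 to 3.58 FPKM, with a log2 difference of 0.01 (interval -0.28 to 0.31). The factors Spi1 and Irf8 were not tested. Spi1 stood at 0.860 ± 0.261 FPKM (SD, n = 3) in WT, against 0.810 ± 0.261 FPKM (SD, n = 3) in Tet2 cKO. Irf8 stood at 0.387 ± 0.129 FPKM (SD, n = 3) and 0.423 ± 0.0153 FPKM (SD, n = 3). Transcripts of both factors were thus several times rarer than those of the surface proteins, and the groups overlapped for each.

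C1q starts the classical complement pathway, and in the brain it is made chiefly by microglia and tags synapses for removal. Its chains are encoded side by side on the minus strand of chromosome 4, C1qb at chr4:136880129-136886187, C1qc at chr4:136889804-136893065 and C1qa at chr4:136895917-136898803. C1qb was the most abundant, at 20.83, 17.77 and 24.09 FPKM in WT, against 28.14, 21.60 and 21.59 FPKM in Tet2 cKO. Tet2 cKO replicate 1 was the highest and WT replicate 2 the lowest, while the other 4 libraries overlapped. On the log2 scale it differed by 0.18 (interval -0.14 to 0.49).

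C1qa ran from 17.84 to 23.60 FPKM with a log2 difference of 0.08, and C1qc from 9.49 to 12.35 FPKM with a log2 difference of 0.10. All 3 chains were thus higher on average under the Tet2 cKO label, and none passed the test. The protein holds its chains in equal numbers, but the transcripts were unequal per kilobase: C1qc stood at 0.517 ± 0.0448 of the C1qa level over the 6 libraries (SD, n = 6). C1qb stood at 1.08 ± 0.108 of it (SD, n = 6).

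The activating immunoreceptors signal through adaptors with an ITAM motif. Tyrobp, the adaptor also called DAP12, stood at 8.49, 6.52 and 11.41 FPKM in WT, against 10.49, 9.46 and 9.47 FPKM in Tet2 cKO. The WT libraries enclosed all 3 others, and the log2 difference was 0.14 (interval -0.32 to 0.60). Trem2, the lipid-sensing receptor that pairs with Tyrobp, ran from 1.21 to 1.94 FPKM, with a log2 difference of 0.17. Tyrobp exceeded Trem2 by 6.67 ± 1.27 times over the 6 libraries (SD, n = 6), on the FPKM scale. Fcer1g, the adaptor shared by Fc receptors, ran from 4.12 to 6.51 FPKM and had the lowest log2 difference of the tested members, -0.19 (interval -0.66 to 0.29). The low-affinity IgG receptor Fcgr3 ran from 2.58 to 5.29 FPKM, with a log2 difference of 0.02. Both extremes of Fcgr3 were WT libraries, the lowest in replicate 2 and the highest in replicate 3.

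Among 6 genes that microglia share with other leukocytes, Laptm5, a lysosomal membrane protein of blood cells, was the most abundant and the steadiest. It stood at 4.52, 3.84 and 4.34 FPKM in WT, against 4.22, 4.07 and 4.53 FPKM in Tet2 cKO. The highest library exceeded the lowest by 1.18 times, the smallest such ratio of any member, and the log2 difference was 0.00 (interval -0.24 to 0.24).

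Cd53, a leukocyte tetraspanin on chromosome 3, had the largest log2 difference of the tested members. It stood at 2.22, 1.93 and 3.36 FPKM in WT, against 3.36, 3.49 and 3.27 FPKM in Tet2 cKO. WT replicate 3 lay with the Tet2 cKO libraries and the other WT libraries lay below them. The log2 difference was 0.42 (SE 0.218, interval -0.07 to 0.90), and it missed the threshold, with an unadjusted p of 0.0857 and an adjusted p of 0.9999 by edgeR. Without WT replicate 3 it was 0.70.

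Ly86, which partners the Toll-like receptor relative Cd180, ran from 1.28 to 2.16 FPKM, and its log2 difference was 0.22. Itgam, the CD11b integrin chain, ran from 0.93 to 1.47 FPKM with a log2 difference of 0.16. Aif1, which encodes the histological marker IBA1, ran from 2.19 to 2.98 FPKM, and its log2 difference was -0.13. Ptprc, the CD45 phosphatase, was near the floor, at 0.213 ± 0.0416 FPKM (SD, n = 3) in WT, against 0.223 ± 0.0321 FPKM (SD, n = 3) in Tet2 cKO. Itgam shares exon sequence with a predicted gene on its own strand, so its level is uncertain.

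The lysosomal and secreted group held the most abundant gene of all. Ctss, a lysosomal cysteine protease, stood at 29.46, 24.17 and 32.33 FPKM in WT, against 38.46, 26.88 and 30.35 FPKM in Tet2 cKO. The groups overlapped, again with Tet2 cKO replicate 1 highest and WT replicate 2 lowest, and the log2 difference was 0.14 (interval -0.18 to 0.47). Ctss and the 3 C1q genes together gave 47.5% ± 1.65 of the summed level (SD, n = 6).

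Cd68, a lysosomal glycoprotein read as a sign of phagocytic activity, lies at chr11:69664213-69666153 on the minus strand. It stood at 3.40, 3.11 and 3.45 FPKM in WT, against 4.42, 4.26 and 4.36 FPKM in Tet2 cKO. Those values rest on 74, 63 and 77 counts in WT, against 97, 96 and 98 counts in Tet2 cKO. Every Tet2 cKO library lay above every WT library, and each group was tight. Cd68 differed by 0.38 on the log2 scale (SE 0.159, interval 0.02 to 0.73), or 1.30-fold. With an unadjusted p of 0.0392 and an adjusted p of 0.9999 by edgeR, Cd68 did not pass. Leaving out any 1 library kept it between 0.33 and 0.42. Hpgds, the prostaglandin D synthase of macrophages, ran from 1.19 to 1.5 FPKM, with a log2 difference of 0.02.

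The border macrophage and myeloid genes were few and mostly below the testing level. Lyz2, the lysozyme of myeloid cells, stood at 4.74, 3.97 and 4.41 FPKM in WT, against 5.53, 4.24 and 4.25 FPKM in Tet2 cKO. Its groups overlapped, and the log2 difference was 0.08 (interval -0.30 to 0.47). Mrc1, the mannose receptor CD206, ran from 0.61 to 0.65 FPKM in WT and from 0.58 to 0.84 FPKM in Tet2 cKO.

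Pf4, a chemokine of platelets and border macrophages, stood at 0.56, 0.52 and 0.23 FPKM in WT, against 0.95, 1.16 and 0.78 FPKM in Tet2 cKO. Every Tet2 cKO library was above every WT library, but these values rest on 7, 6 and 3 counts against 12, 15 and 10. Pf4 lay below the testing level. When all genes were fitted without that filter, edgeR gave a log2 difference of 1.13, an unadjusted p of 0.0508 and an adjusted p of 0.970. Choroid plexus tissue houses such macrophages, and its summed markers were lower on average under the Tet2 cKO label, at a ratio of 0.475. Their part in the Pf4 values was not tested.

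**Figure D3:**
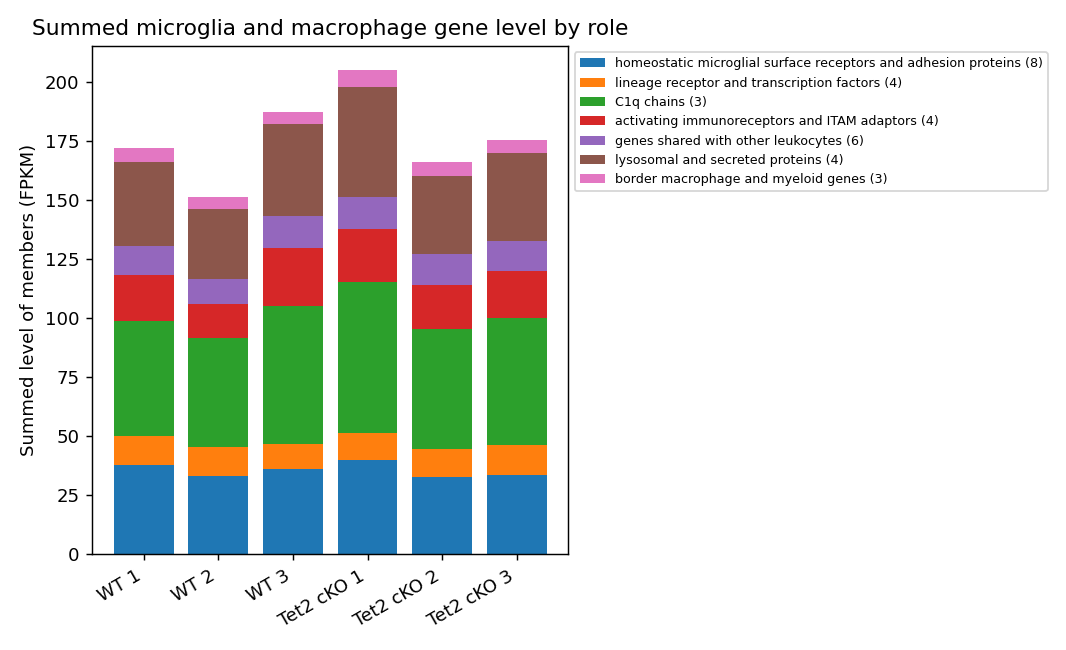
Stacked bars of the summed FPKM of the 32 microglia and macrophage genes in each library, divided by role, with the number of genes of each role in brackets. The C1q chains are the largest segment of each bar, WT replicate 2 has the lowest total at 151.1 FPKM, and Tet2 cKO replicate 1 has the highest at 204.9 FPKM.

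By role, the ratio of the summed FPKM in Tet2 cKO to that in WT was 0.991 for the surface receptors, 1.03 for the lineage genes and 1.03 for the activating receptors and adaptors. It was 1.10 for the C1q chains, 1.09 for the shared leukocyte genes, 1.12 for the lysosomal and secreted group and 1.17 for the border macrophage and myeloid genes. For most members the WT range exceeded the difference between group means, with Cd68 and Pf4 among the exceptions. WT replicate 2 had the lowest value of 17 of the 32 genes, and Tet2 cKO replicate 1 the highest value of 16. The ratio of the highest to the lowest library had a median of 1.39 over the tested members and of 1.28 over all tested genes. Red cell markers, which track blood left in the tissue, were highest in WT replicate 2, at 176.7 FPKM, and ran from 74.76 to 110.6 FPKM in the rest. Their part in the low microglial values of that library was not tested.

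How many tested members lay higher in every Tet2 cKO library than in every WT library depended on which libraries were kept. With all libraries it was Cd68 alone. Without WT replicate 3 there were 5, namely C1qb, C1qc, Tyrobp, Cd68 and Cd53, beside 11.0% of all tested genes. Without WT replicate 1 there were 3, namely Cx3cr1, Siglech and Cd68, beside 6.57% of tested genes. Without Tet2 cKO replicate 3 there were also 3 (Cd68, Itgam and Ly86, background 6.5%). Leaving out Tet2 cKO replicate 1 gave Cd68 and Selplg (background 9.13%), and leaving out Tet2 cKO replicate 2 gave Cd68 and Tmem119 (background 7.15%). Leaving out WT replicate 2 gave Cd68 alone (background 8.2%). Cd68 was in the set each time, but a gene separated in all libraries must stay separated when 1 is left out.

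Fcrls, an Fc receptor-like scavenger protein of microglia, varied more than any other member, and chiefly within the groups. It stood at 3.54, 1.15 and 4.03 FPKM in WT, against 5.92, 1.43 and 2.88 FPKM in Tet2 cKO. Each group held 1 low library, replicate 2 in both, and the highest library exceeded the lowest by 5.15 times. Reads behind these values numbered 143, 43 and 167 in WT, against 241, 60 and 120 in Tet2 cKO. Its spread over libraries on the log2 scale lay at the 99.5th percentile of all tested genes. The log2 difference between groups was 0.21 (SE 0.504), and leaving out 1 library moved it from -0.45 to 0.58. Cx3cr1 and Csf1r, markers of the same cell type, varied by 1.25 and 1.31 times across the same libraries.

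Olfml3, a secreted olfactomedin-like protein of microglia, followed a similar course. It stood at 1.48, 0.89 and 1.74 FPKM in WT, against 1.86, 0.74 and 1.26 FPKM in Tet2 cKO. Replicate 2 was again the lowest in each group, with a spread at the 95.9th percentile and a log2 difference of -0.10 (interval -0.82 to 0.61). Fcrls lies at chr3:87250758-87263738 and Olfml3 at chr3:103722222-103738001, both on the minus strand.

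The genes most like Fcrls were found among all tested genes, by the root mean square distance between log2 levels over the 6 libraries, each centred on its own mean. Of the 10 nearest, 5 lay on chromosome 3 (50%), which holds 5.14% of the tested genes. Among the nearest 50 the share was 28.0%. With Pearson's r as the measure of likeness it was 30% for 10 genes. Capza1, an actin capping subunit at chr3:104822779-104864505, was the nearest, at a distance of 0.144. It stood at 7.75, 3.42 and 11.1 FPKM in WT, against 14.5, 3.90 and 8.31 FPKM in Tet2 cKO, and it shares exon sequence with St7l on the opposite strand. Arsj, an arylsulfatase at chr3:126363684-126440375, and Olfml3 were also among the 10. The others on chromosome 3 were the predicted gene Gm6204 and Snord73b, which had 0.0 FPKM in replicate 2 of both groups and at most 5.56 FPKM elsewhere. S100a10, an annexin partner at chr3:93555080-93564643, was among the 10 nearest to Olfml3, of which 2 lay on chromosome 3. S100a10 stood at 7.44, 4.05 and 8.70 FPKM in WT, against 8.85, 4.70 and 6.51 FPKM in Tet2 cKO.

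Members of the set on the same chromosome did not all share this course. P2ry12, P2ry13, Ctss and Cd53 are also on chromosome 3, where 6 of the 32 genes lie. P2ry12 was high in WT replicate 2, where Fcrls was low. Ctss, by contrast, was lowest in replicate 2 of each group and highest in Tet2 cKO replicate 1, as Fcrls was, over a narrower range of 1.59 times. Chosen after values were seen, the ribosomal protein gene Rps3a1 at chr3:86137940-86142702 stood at 98.11, 3.63 and 219.03 FPKM in WT. In the Tet2 cKO libraries it stood at 248.29, 3.60 and 119.51 FPKM. Rps3a1 has near-identical copies, so its level depends on how such reads were counted. Snord73b, at chr3:86140618-86140688, lies within Rps3a1, so they do not mark separate places on the chromosome. Cd101, an immunoglobulin superfamily gene at chr3:100993529-101029556, also chosen after values were seen, went the opposite way. It stood at 0.00, 4.59 and 0.05 FPKM in WT, against 0.09, 1.94 and 0.10 FPKM in Tet2 cKO. The variation in Rps3a1 and Cd101 runs across the genotype groups, and its cause was not tested.

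**Figure D4:**
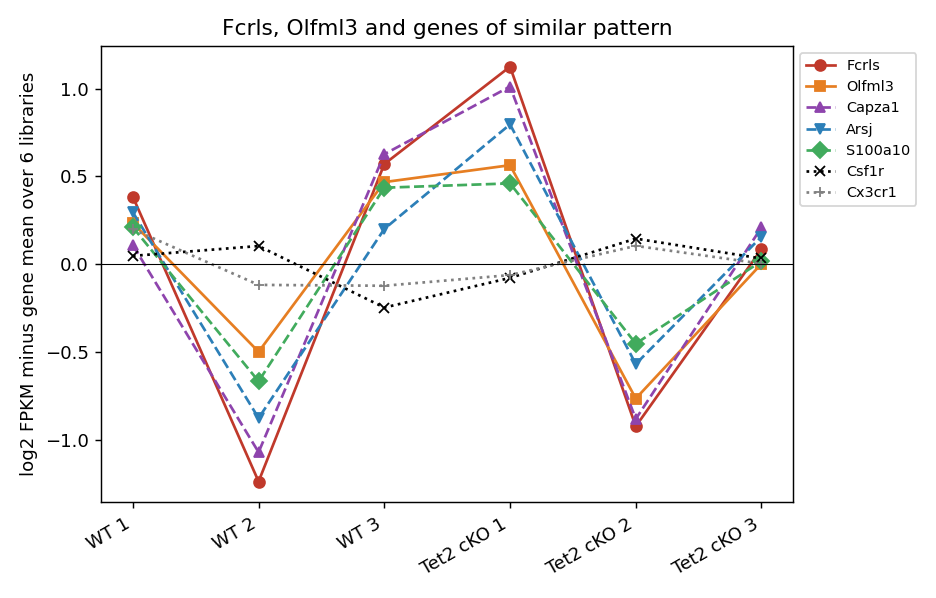
log2 FPKM minus each gene's own mean over the 6 libraries, for Fcrls, Olfml3, the chromosome 3 genes Capza1, Arsj and S100a10, and the microglial receptors Csf1r and Cx3cr1. Lines only join the points of a gene. Fcrls, Olfml3, Capza1, Arsj and S100a10 dip in replicate 2 of both groups, while Csf1r and Cx3cr1 stay close to 0. Capza1, Arsj and S100a10 were picked for likeness to Fcrls or Olfml3 over these libraries, so their dip follows from that choice.

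Genes around the members were read from lists chosen beside them. Of 30 further genes enriched in microglia, 18 were tested, 11 were higher and 7 lower under the Tet2 cKO label, and none passed the adjusted threshold. Their median log2 difference was 0.04. Their summed level was 140.0, 131.9 and 136.6 FPKM in WT, against 140.6, 139.0 and 138.9 FPKM in Tet2 cKO, a ratio of 1.02. The smallest unadjusted p belonged to Cyth4, an exchange factor of leukocytes (log2 difference -0.22, interval -0.53 to 0.09), and to Ltc4s, the leukotriene C4 synthase (-0.48, interval -1.22 to 0.27).

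Ligands that reach microglia and their partners gave 8 tested genes of 12, with 6 higher, 2 lower and none past the threshold. Csf1, a ligand of Csf1r, stood at 4.43, 5.28 and 3.52 FPKM in WT, against 5.07, 5.29 and 5.20 FPKM in Tet2 cKO. It overlapped between groups, with a log2 difference of 0.23 (interval -0.07 to 0.52) that was 0.10 without WT replicate 3. Cx3cl1, the neuronal ligand of Cx3cr1, was abundant, at 77.0 ± 4.09 FPKM (SD, n = 3) in WT, against 71.9 ± 4.51 FPKM (SD, n = 3) in Tet2 cKO. The log2 difference of Cx3cl1 was -0.11 (interval -0.27 to 0.06). The ligand transcript exceeded that of its receptor 11.8 ± 1.30 times on the FPKM scale (SD, n = 6).

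Microglia that gather at lesions switch on a further programme. Of 16 genes of disease-associated microglia, 8 were tested, 4 were higher and 4 lower, and none passed. Markers specific to that state were near the floor, with means of 0.0417 FPKM for Itgax, 0.0867 FPKM for Cst7 and 0.123 FPKM for Clec7a. Spp1, the secreted phosphoprotein osteopontin, stood at 4.67, 5.39 and 6.53 FPKM in WT, against 3.90, 3.35 and 4.0 FPKM in Tet2 cKO. Every Tet2 cKO library lay below every WT library, beside a background of 3.46%. The log2 difference was -0.57 (interval -0.94 to -0.20), with an unadjusted p of 0.00668 and an adjusted p of 0.9999 by edgeR, so Spp1 did not pass. Spp1 is also made by neurons and other cells. Cd63, a tetraspanin of late endosomes in many cell types, had a log2 difference of 0.20 (interval 0.00 to 0.39) and an unadjusted p of 0.0454.

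Complement components after or beside C1q gave 5 tested genes of 11, with 2 higher, 3 lower and none past the threshold. C4b, the component cleaved by C1 and made largely by glia other than microglia, stood at 1.59, 1.89 and 1.73 FPKM in WT. In the Tet2 cKO libraries it stood at 1.20, 1.14 and 1.27 FPKM, below every WT library (background 3.46%). The log2 difference was -0.54 (interval -0.84 to -0.24), the unadjusted p was 0.00252 and the adjusted p 0.9999 by edgeR. C4b was thus lower on average while the C1q chains were higher on average, and neither passed the test. Cd93, an endothelial and myeloid surface protein once taken for a C1q receptor, had a log2 difference of -0.24 (interval -0.59 to 0.10).

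Cytokine, chemokine and innate sensing genes lay mostly near the floor. Of 22, 6 were tested, 4 were higher, 2 lower and none passed. Of the 6, 2 had an unadjusted p under 0.05 by edgeR (background 2.57%). Groups did not overlap for 3 of them (background 6.8%). Tnf, Il6 and Il1b had means of 0.0117, 0.0367 and 0.0517 FPKM. Nfkbia, the inhibitor of NF-κB and itself a target of it, stood at 13.43, 15.44 and 9.38 FPKM in WT, against 16.06, 18.34 and 16.57 FPKM in Tet2 cKO. Every Tet2 cKO library lay above every WT library (background 3.34%), with WT replicate 3 far the lowest. The log2 difference was 0.41 (interval 0.05 to 0.76) and fell to 0.24 without WT replicate 3, with an unadjusted p of 0.0283 in all libraries. The lipopolysaccharide co-receptor Cd14 stood at 1.5, 2.05 and 1.53 FPKM in WT, against 1.03, 1.06 and 1.29 FPKM in Tet2 cKO. Its Tet2 cKO libraries all lay below the WT libraries (background 3.46%). The log2 difference of Cd14 was -0.59 (interval -1.11 to -0.07), with an unadjusted p of 0.0310 by edgeR. Neither gene passed, the adjusted p being 0.9999 for each by edgeR. Cd68 and Nfkbia were thus on the higher side and Spp1, C4b and Cd14 on the lower side, all short of the threshold.

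Markers of astrocytes are given beside these genes as measured. Of 8, 3 had an unadjusted p under 0.05 (background 2.57%) and 4 had groups that did not overlap (background 6.8%), 3 of them higher and Sox9 lower. None passed the adjusted threshold. Aqp4, the water channel of astrocyte endfeet, stood at 46.74, 43.52 and 28.78 FPKM in WT, against 62.50, 59.78 and 55.32 FPKM in Tet2 cKO. Its Tet2 cKO libraries all lay above the WT libraries, with WT replicate 3 lowest. The difference was 0.57 on the log2 scale (interval 0.23 to 0.91), with an adjusted p of 0.9999 by edgeR, and 0.39 without WT replicate 3. With no filter on low values edgeR gave Aqp4 an adjusted p of 1.97e-05, so its call depended on that setting. Every choroid plexus marker but Otx2 (adjusted p 0.313) also passed in that edgeR fit. Among them was Ttr, at an adjusted p of 5.54e-05, although its groups overlapped. Gja1, a gap junction protein, differed by 0.22 (interval 0.06 to 0.38), with an adjusted p of 0.9999 by edgeR. The 8 astrocyte markers summed to 259.5 to 305.7 FPKM in WT, against 313.0 to 331.0 FPKM in Tet2 cKO. Their part in the values of Nfkbia, C4b and Spp1, which astrocytes and other cells express too, was not tested.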

How the data were processed

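RNA-seq of 6 habenula libraries was analysed from 1 gene-level table. The deposited raw counts, whole numbers per gene, were made by the authors, and the FPKM values are theirs too: count per kilobase of exonic size, scaled by the library total, which held within 0.005 for every value. FastQC 0.10.1, cutadapt 1.9.1, HISAT2 2.0.1, SAMtools 0.1.19 and build mm10 are named, per the submitters' processing notes. No counter, annotation release or strand setting is stated in those notes or in the labels.

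Genes averaging at least 1 FPKM, 14539 in all, were tested on their counts with edgeR 4.0.16 (TMM, quasi-likelihood, two-sided, no covariate) in R 4.3.3, with Benjamini-Hochberg adjustment at 0.05. The common biological coefficient of variation was 10.4%. Alternatives used DESeq2 1.42.0, limma 3.58.1, other scalings, no filter, a replicate block and each library left out. The procedure was tested on simulated data. No 2 libraries were alike within counting noise: the mean chi-square per gene between libraries was 3.53 to 15.9. Positions come from GENCODE release M21 (GRCm38) by gene identifier, since the table's own coordinates belong to another assembly. Fcrls likeness and the motifs were examined after values were seen.

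The members and gene lists were chosen with earlier results of these data known. Values in every library are given for the most abundant member of each role and for members with an unadjusted p under 0.05 or separated groups, and each other list names up to 2 tested genes of smallest unadjusted p. Any further gene with values, such as Cd53, Fcrls, Olfml3 and the cytokines, was chosen after its values were seen.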

Additional observations from a re-analysis of the deposited data

How the results depend on the processing

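No member passed the adjusted threshold in any of the 14 other fits. Over all genes, the count past it went from 0 to 4 with DESeq2, 2 with limma voom and library weights, 49 with no filter and 0 to 3 with 1 library left out. Genes at an unadjusted p under 0.05 numbered 962 with voom weights, 1109 with no filter and 228 to 865 with 1 library left out. The members' median log2 difference was 0.033 in the main fit. It lay between 0.036 and 0.064 over the other fits of all libraries and between -0.039 and 0.10 with 1 library left out. The summed ratio lay between 1.0 and 1.13 with 1 library left out, was 1.05 on counts scaled by library totals and 1.04 without the 3 most abundant genes. Of the tested members, 9 kept their direction in every fit (P2ry13, C1qa, C1qb, C1qc, Cd68, Itgam, Ly86, Fcer1g and Cd53) and 18 turned in at least 1.

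With voom weights the log2 difference turned to -0.038 for Cx3cr1, -0.0022 for Csf1r, 0.037 for Selplg, -0.035 for Hpgds and -0.043 for the border macrophage marker Stab1, whose value in all libraries was 0.0001. With 1 library left out, the ranges that crossed 0 were -0.044 to 0.13 for Cx3cr1, -0.21 to 0.021 for P2ry12, -0.053 to 0.13 for Tmem119, -0.036 to 0.12 for Csf1r and -0.055 to 0.30 for Trem2. They were -0.037 to 0.38 for Tyrobp, -0.21 to 0.016 for Aif1, -0.11 to 0.10 for Siglech, -0.45 to 0.58 for Fcrls, -0.11 to 0.077 for Sall1 and -0.27 to 0.020 for Gpr34. They were -0.0082 to 0.25 for Ctss, -0.46 to 0.17 for Olfml3, -0.080 to 0.098 for Selplg, -0.066 to 0.055 for Laptm5 and -0.20 to 0.33 for Fcgr3. They were -0.067 to 0.092 for Hpgds, -0.049 to 0.15 for Lyz2 and -0.056 to 0.084 for Stab1. The cause of these turns was not tested.

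The number of tested members with every Tet2 cKO library above every WT library went from 1 to between 1 and 5 with 1 library left out, where fewer libraries have to be cleared, with 5 without WT replicate 3. The share of the genes most like Fcrls on chromosome 3 was 50% for 10 genes, 40.0% for 20 and 28.0% for 50. With Pearson's r as the measure it was 30% for 10 genes and 20% for 50. These alternatives, and the counts at an unadjusted p, were chosen after seeing the data.

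Replicate numbers are shared between the groups. Deviations of same-numbered libraries correlated at -0.0413, 0.176 and -0.102 for replicates 1, 2 and 3. Those of differently numbered libraries correlated at -0.196 to 0.193. The value of replicate 2 was thus positive but within the range of unmatched pairs. With the replicate block no gene passed and 346 genes had an unadjusted p under 0.05. The median of the members was then 0.057, and Cd68 had a log2 difference of 0.38 with an unadjusted p of 0.0647.

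Depth limits the rarest genes most. Pf4 rests on 16 counts in WT and 37 under the Tet2 cKO label, and with 3 libraries a group the 95% interval reached past 1.5-fold for all but 18 of the 27 tested members.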

Other observations

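Genes whose Tet2 cKO libraries all lay above all WT libraries, below the testing level, included the monocyte chemokine Ccl2, at means of 0.05 FPKM in WT, against 0.377 FPKM in Tet2 cKO. Those values rest on 3 counts in WT, all in replicate 3, and 23 in Tet2 cKO. The chemokine Ccl3 lay on the other side, at 0.743 FPKM in WT, against 0.347 FPKM in Tet2 cKO (29 and 14 counts), with overlapping groups. Ccl4 had 6 and 8 counts. Nfkb1, the NF-κB subunit precursor, lay below every WT library in all Tet2 cKO libraries (background 3.46% of tested genes). Its log2 difference was -0.18, with an unadjusted p of 0.0588 by edgeR. Of the listed genes below the testing level, Nrros and Cd52 also had every Tet2 cKO library above WT. Nrros had 152 counts in WT and 222 in Tet2 cKO, and Cd52 had 34 and 67. Gpnmb (62 and 33 counts) and Cd79a (19 and 9 counts) had every Tet2 cKO library below WT. The share of such genes among all untested genes was not computed. All genes named here were chosen after their values were seen.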
